A study of Mus musculus with 9 samples.

Results

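The sites described here are the places in the genome where RelA was called after 6 h of TNF and RelB was not. They were chosen by peak overlap: a peak of RelA replicate 1 had to overlap a peak of RelA replicate 2 by at least 1 bp, both were merged into 1 site, and no peak of either RelB library at 6 h could overlap that site by 1 bp. Of 2539 reproducible RelA sites, 391 met this rule, which is 15.4% of them. Without RelB replicate 1 the number was 564 (22.2% of RelA sites) and without RelB replicate 2 it was 678 (26.7%). Leaving out a RelA library changed the set of RelA sites itself, since every peak of the remaining RelA library then counted as a site. This gave 2772 sites without RelA replicate 1 (48.7% of those peaks) and 3932 without RelA replicate 2 (55.8%). The peak lists themselves chose these sites, so their number and their strength are given as a description and were not tested. The other 2148 RelA sites comprised 460 with a peak in 1 RelB library and 1688 with a peak in both. The mirrored rule gave 577 RelB-only sites among 3023 reproducible RelB sites, and both sets serve as comparison.

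The cells were Nfkb2-/- MEFs, mouse embryonic fibroblasts that lack p100 and its product p52 and that the study immortalized by the 3T3 protocol. Antibodies against RelA and RelB were each used on chromatin of untreated cells (0 h) and of cells kept in 10 ng/ml TNF for 6 h, and every one of these 4 groups had 2 libraries. The 6 h lists held between 5192 and 7052 peaks and the 0 h lists between 14 and 194, each called against an input that was combined from both replicates. All groups carried the Nfkb2 deletion, and no wild-type library was used here. The labels do not say whether replicates came from separate cultures, and peak lists hold no reads that could check the deletion or the cell type.

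RelA and RelB belong to the NF-κB family of transcription factors, which bind as dimers to short κB sequences in DNA. RelA, paired with p50, is the main effector of TNF signalling, whereas RelB is best known from the non-canonical pathway, in which it pairs with p52, and can also pair with p50. A κB sequence has a run of G at one end and a run of C at the other, separated by a central stretch that is often rich in A and T.

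The sequences of 9 RelA-only sites with a κB match are printed first, since they lie at immune genes or among the strongest sites and show how varied the matched sequence was. They come from the plus strand of the mm9 genome, and capitals mark each match to the κB consensus on either strand.
Ier3 promoter, chr17:35958480-35958580: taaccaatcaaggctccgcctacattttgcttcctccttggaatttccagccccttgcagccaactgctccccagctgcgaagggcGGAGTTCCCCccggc
Icam1 promoter, chr9:20820237-20820337: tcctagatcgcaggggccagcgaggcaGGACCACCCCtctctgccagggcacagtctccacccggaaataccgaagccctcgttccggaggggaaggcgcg
Psme2 promoter, chr14:56210194-56210294: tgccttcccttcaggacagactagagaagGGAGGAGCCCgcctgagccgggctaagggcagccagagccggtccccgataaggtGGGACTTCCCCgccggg
Tnip3 promoter, chr6:65540260-65540360: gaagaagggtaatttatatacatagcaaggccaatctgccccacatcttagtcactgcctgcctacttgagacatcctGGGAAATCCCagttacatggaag
Myd88 intron, chr9:119250144-119250244: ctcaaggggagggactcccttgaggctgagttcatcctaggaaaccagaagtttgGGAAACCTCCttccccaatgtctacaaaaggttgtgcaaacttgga
Hivep2 intron, chr10:13686630-13686730: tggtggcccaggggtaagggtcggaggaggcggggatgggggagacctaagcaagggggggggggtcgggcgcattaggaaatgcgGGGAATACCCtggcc
Nod2 intron, chr8:91174335-91174435: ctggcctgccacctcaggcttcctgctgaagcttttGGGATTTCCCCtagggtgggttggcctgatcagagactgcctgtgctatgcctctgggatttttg
Cxcl5 start site, chr5:91188287-91188316: ccaagtccaGGGAATTTCCCcagcatcttc
C3 start site, chr17:57367573-57367602: tcctgcaccaGGGACTGCCCaaaatttcgc
Each window holds about 100 bases near the site centre, except at Cxcl5 and C3, where only the match with its neighbouring bases is given, 30 bases in all.

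Other RelA-only sites had no match to the consensus. The strongest of all, in an intron of Blk, and a CpG-rich site upstream of Birc2 are printed for comparison, again from the plus strand of mm9 and with no capitals because no κB match was found in them.
Blk intron, chr14:64026607-64026707: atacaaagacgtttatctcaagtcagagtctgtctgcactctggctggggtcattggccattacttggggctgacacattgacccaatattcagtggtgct
Birc2 upstream region, chr9:7837052-7837152: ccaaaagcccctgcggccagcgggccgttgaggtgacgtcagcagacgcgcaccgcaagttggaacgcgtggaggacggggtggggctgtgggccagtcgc

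RelA-only sites were weaker than the RelA sites that RelB shared, and this was so in both libraries. In a bulk ChIP a low fold may come from few cells with bound RelA or from little RelA in every cell, which cannot be told apart. The median log2 fold over input was 2.78 in replicate 1 and 2.73 in replicate 2, and at the other RelA sites it was 3.13 and 3.09. The range ran from 1.44 to 4.32 in replicate 1 and from 1.48 to 4.64 in replicate 2, whereas the other RelA sites ran from 1.67 to 5.67 and from 1.52 to 5.80, so that the sets overlapped over most of their range. A median RelA-only site held 19 ChIP reads in replicate 1 and 18 in replicate 2, with 6 input reads in each, whereas the other RelA sites had medians of 32 and 30 ChIP reads. Median peak length was 108 and 116 bp, against 180 and 172 bp. The median FDR of the call was 0.00291 in replicate 1 and 0.00527 in replicate 2, and 5.70e-05 and 1.17e-04 at the other sites. Low folds were not particular to RelA-only sites. RelA sites with a peak in 1 RelB library had median log2 folds of 2.89 and 2.83. RelB-only sites had 2.80 and 2.78 in their own libraries, with medians of 17 and 20 ChIP reads.

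Both libraries had to have a peak at these sites and both folds were taken over the same combined input, so the likeness of the libraries is a description only. The log2 folds of both replicates differed by no more than 1 at 370 of the 391 sites (94.6%), with a median difference of 0.28 in either direction, and this median was 0.28 at the other RelA sites as well. Across the RelA-only sites the Spearman correlation of both replicates was 0.625 and across the other RelA sites 0.740. Both values describe sites of the same libraries, with a narrower range of folds among the RelA-only sites, and sites are not independent replicates. Reads fell evenly on both strands, with 49.7% and 48.8% of ChIP reads on the forward strand.

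**Figure D1:**
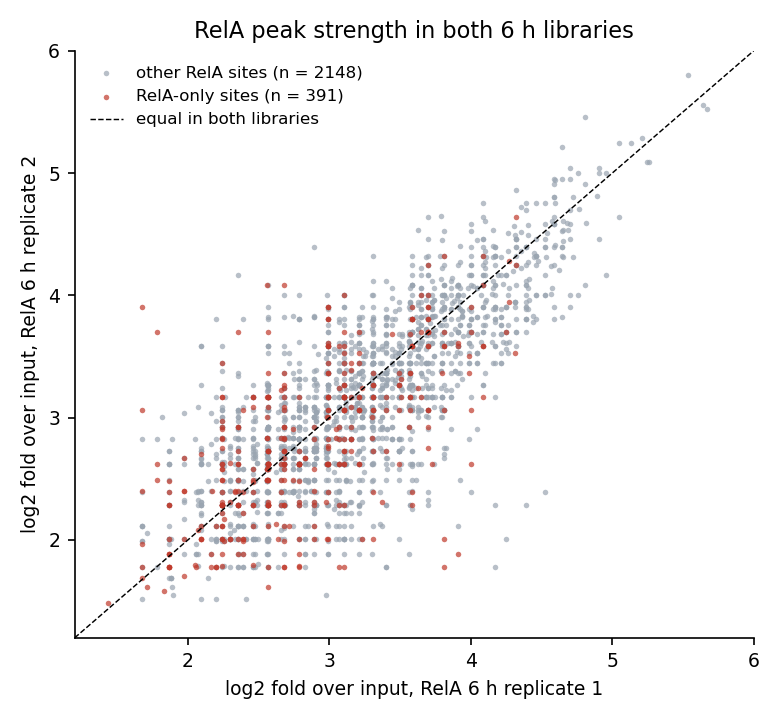
The log2 fold over input in RelA replicate 2 is plotted against replicate 1 for each RelA-only site (red, n = 391) and each other RelA site (grey, n = 2148), with a dashed line where both are equal. RelA-only sites spread along the line up to 4.64 and are absent from the upper end, where other RelA sites reach 5.80.

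When the 2539 RelA sites were ordered by mean log2 fold and divided into 5 bins of equal size, RelA-only sites made up 28.0% of the weakest bin and 7.10% of the strongest. The bins between them had 16.9, 13.6 and 11.4%. The share thus became smaller with each step in strength, but 36 of the 507 strongest sites were still RelA-only. The lists give no RelB value where no peak was called, and the part of the RelB calling threshold in these shares was not tested.

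The distance to RelB peaks varied widely. The gap to the nearest RelB peak had a median of 31273 bp. At 309 sites no RelB peak lay within 1000 bp, and 82 sites (21.0%) had one within that distance. In 47 cases (12%) a RelB peak lay within 200 bp, and in 30 cases (7.67%) within 50 bp, so that a group of RelA-only sites sat beside RelB peaks without overlap. The 47 sites near a RelB peak had median log2 folds of 2.98 and 2.75, compared with 2.78 and 2.73 for the remaining 344.

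**Figure D2:**
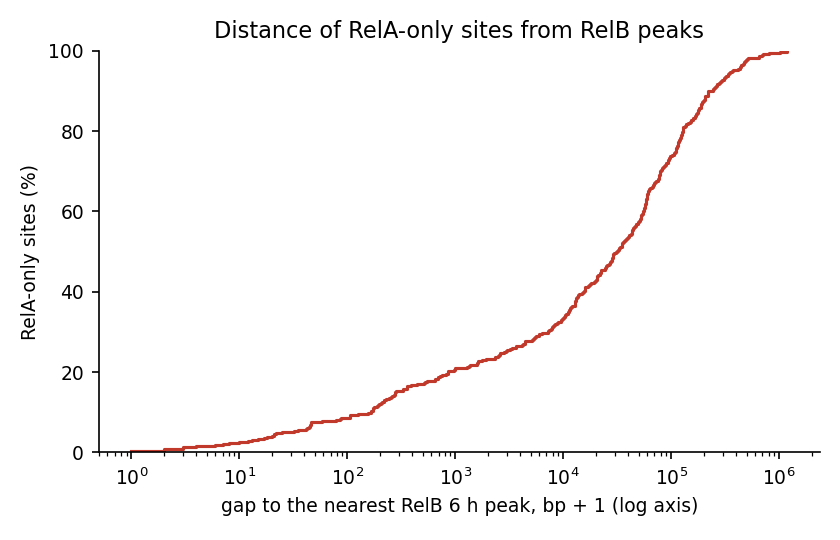
The percentage of the 391 RelA-only sites is plotted against the gap to the nearest RelB peak at 6 h, in bp plus 1 on a log axis. The curve reaches 12% at a gap of 200 bp and 21.0% at 1000 bp, and it crosses the middle at the median of 31273 bp.

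The sites just inside the rule were separated from RelB by almost nothing. A site nearest to the coding gene Itpripl2 adjoined a RelB peak with no base between them, and sites nearest to Gm5908 and Serp2 were 1 bp from one. Just outside the rule, RelA sites nearest to Nanos3, Rnd3 and Anxa6 shared 1, 3 and 5 bp with a RelB peak. The Gm5908 site had log2 folds of 4.09 in both RelA libraries, the Nanos3 site 3.4 and 3.17. Sites of high and of lower fold thus lay on both sides of the rule.

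The 10 strongest RelA-only sites had log2 folds from 3.70 to 4.32 in replicate 1 and from 3.70 to 4.64 in replicate 2. In 7 of them the site lay in an intron, and 4 had no κB match. The first, in an intron of Blk, a Src family kinase gene of B cells, had log2 folds of 4.32 and 4.64 with 49 and 74 ChIP reads. This site lay 12 bp from a RelB peak. The second, in an intron of Arid1a, which encodes a subunit of the SWI/SNF chromatin remodelling complex, had 4.32 and 4.25 and was 40524 bp from the nearest RelB peak. The third, in an intron annotated to Pnrc1, had 4.27 and 4.28 with 94 and 90 reads, the highest read number of these 10 in both libraries. It was 13500 bp from RelB. An intron of Nod2, which encodes an intracellular receptor for bacterial cell wall fragments, had 3.70 and 4.25, and its nearest RelB peak was 46323 bp away. Only 1 of the 10 strongest sites lay within 1 kb of a start site, at Ier3.

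A larger share of the RelA-only sites than of the other NF-κB sites lay near gene starts. A start site of an annotated gene lay within 1 kb of the centre at 93 of 391 sites, 23.8% (Wilson 95% interval 19.8 to 28.2%). At the other RelA sites this share was 14.4% (13 to 15.9%), at RelB-only sites 9.36% (7.24 to 12%). The difference from the other RelA sites was 9.40 percentage points, with a Newcombe 95% interval from 5.16 to 14.1 points and, after widening for the 12 comparisons made, from 3.35 to 16.4 points. From RelB-only sites the difference was 14.4 points, with a widened interval from 7.51 to 21.7 points. Both widened intervals left out 0, which is the criterion for a called difference here. Since the position of a gene plays no part in the choice of the sites, this comparison is separate from the rule. These intervals cover counting error over sites, not variation between cultures.

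The share near gene starts decreased with the number of RelB libraries that had a peak, from 23.8% with none to 17.6% with 1 and 13.5% with both. Weighting the other RelA sites to the strength of the RelA-only sites left a difference of 10.8 points, with a widened interval from 4.59 to 17.8 points. The difference was smaller when 1 RelA library stood for RelA, at 2.01 points without replicate 1 and 2.35 points without replicate 2, and in both cases its widened interval held 0. Against RelB-only sites it was then 6.24 and 5.62 points and still called. The remaining RelA-only sites were in introns (138 sites), outside genes (144) and in exons (16) away from a gene start.

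Many of the sites near gene starts lay in CpG-rich DNA, the base composition of CpG islands, which mark a large share of mammalian promoters. The DNA within 150 bp of the centre was called CpG-rich when its G+C content was above 50% and its CpG number above 0.6 of that expected. This applied to 85 RelA-only sites, 21.7% (17.9 to 26.1%), to 9.40% (8.24 to 10.7%) of the other RelA sites and to 6.24% (4.54 to 8.52%) of RelB-only sites. The difference from the other RelA sites was 12.3 points (widened interval 6.62 to 19.1), and from RelB-only sites 15.5 points (9.07 to 22.4), both called. RelA sites with a peak in 1 RelB library and in 2 had nearly the same share, 9.57 and 9.36%.

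Of the 93 RelA-only sites near a gene start, 64 were CpG-rich, 68.8% (58.8 to 77.3%), whereas at the other RelA sites near a gene start this was 52.1% (46.5 to 57.6%). Away from gene starts, 7.05% (4.66 to 10.5%) of the RelA-only sites and 2.23% (1.65 to 3.01%) of the other RelA sites were CpG-rich. Higher CpG content was thus found both at and away from gene starts. Median input reads were 7 and 7 at CpG-rich and 6 and 6 at the remaining RelA-only sites, and median ChIP reads were 19 and 19, against 19 and 18.

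The CpG-rich share showed no steady trend with strength among the RelA-only sites. It was 21.8% in the weakest of the 5 bins, then 19.8, 21.7 and 22.4%, and 25% in the strongest, which held 36 RelA-only sites. Among the other RelA sites the weakest bin had 3.55% and the remaining bins between 9.79 and 11.1%. With the other RelA sites weighted to the same strength, the difference was 13.5 points (widened interval 7.71 to 20.3). Without RelA replicate 1 it was 2.35 points and without RelA replicate 2 it was 3.4 points. It was 6.31 points without RelB replicate 2, and all 3 widened intervals still left out 0, the one without RelA replicate 1 only just (0.0435 to 4.67). Against RelB-only sites these settings gave 5.46, 5.63 and 9.69 points, all called.

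**Figure D3:**
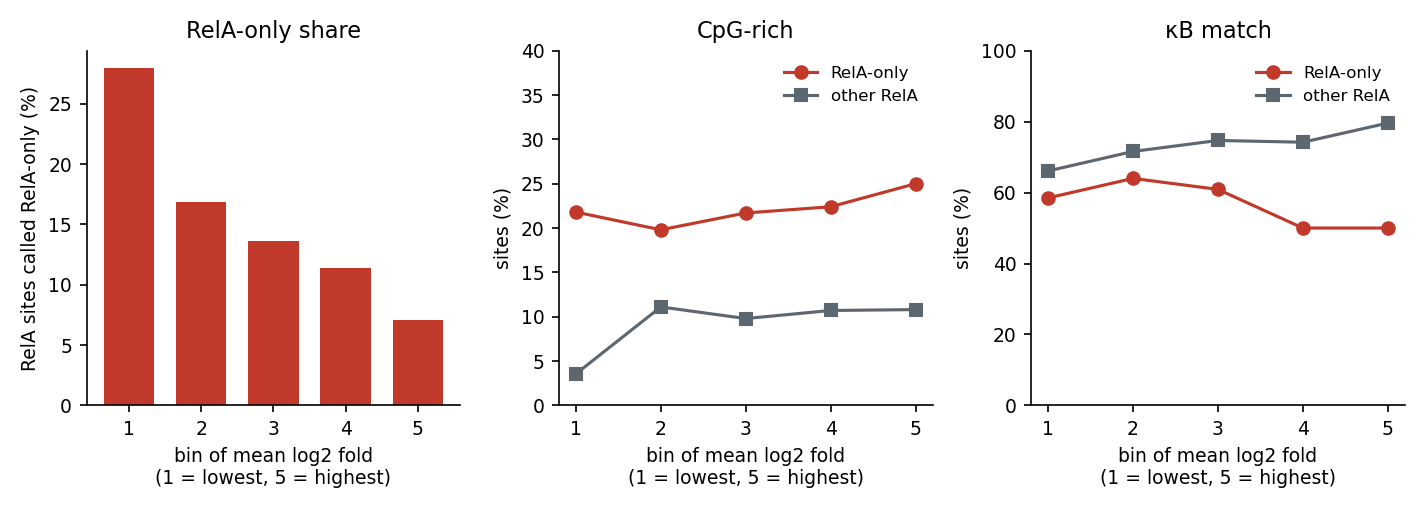
All 2539 RelA sites are divided into 5 bins of equal size by mean log2 fold over input, from 1 (lowest) to 5 (highest). The left panel gives the percentage that was RelA-only, which falls from 28.0 to 7.10%, and the other panels give the percentage of CpG-rich sites and of sites with a κB match for RelA-only sites (red circles) and other RelA sites (grey squares).

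The κB consensus was less frequent at RelA-only sites than at the RelA sites shared with RelB. Within 100 bp of the centre, 227 RelA-only sites had a match, 58.1% (53.1 to 62.8%), and 73.6% (71.7 to 75.4%) of the other RelA sites. The difference was -15.5 points, with a widened interval from -23.3 to -8.08 points, and was called. RelB-only sites had a match in 54.1% (50.0 to 58.1%), and the difference of 3.98 points from them was not called, with a widened interval from -5.33 to 13.1 points. Flanking windows of the same size, 1000 bp away on both sides of the RelA-only sites, held a match in 11.4%, near the share of the flanks of other RelA sites, 12.5%, and of RelB-only sites, 9.88%. Without RelA replicate 1 the difference from the other RelA sites was -36.5 points and without replicate 2 it was -34.7 points. Every peak of the remaining RelA library then counted as a site, whereas RelB-only sites still needed both libraries. Against RelB-only sites the difference was -25.5 and -24.3 points in these settings. Leaving out RelB replicate 1 or 2 did the reverse, with RelB-only sites taken from a single library. The difference from RelB-only sites was then 22.7 or 16.2 points, which was called.

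In contrast to the CpG-rich share, the κB shares lay further apart at strong sites. In the weakest bin a match was found at 58.5% of RelA-only and 66.1% of other RelA sites, and in the strongest at 18 of 36 RelA-only sites and 79.6% of other RelA sites. At equal weighting for strength the difference was -12.8 points (widened interval -20.7 to -5.09). CpG-rich RelA-only sites had a match in 61.2% (50.5 to 70.8%) of cases and CpG-rich other RelA sites in 80.7% (74.7 to 85.5%), so the lower κB share was present within CpG-rich DNA as well. CpG-rich RelA sites with a peak in 1 RelB library had 72.7% (58.2 to 83.7%), which overlapped the RelA-only interval. Within 1 kb of a gene start the intervals overlapped too, with 66.7% (56.6 to 75.4%) of RelA-only and 74.8% (69.6 to 79.3%) of other RelA sites. Beyond 1 kb the shares were 55.4% (49.7 to 60.9%) and 73.4% (71.3 to 75.4%). Of the 391 sites, 175 had a κB match and were not CpG-rich, 52 had both, 33 were CpG-rich without a match and 131 had neither. The 33 CpG-rich sites without a match had the highest median folds of these classes, 3.10 and 3.06, and 26 of them lay within 1 kb of a gene start.

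**Figure D4:**
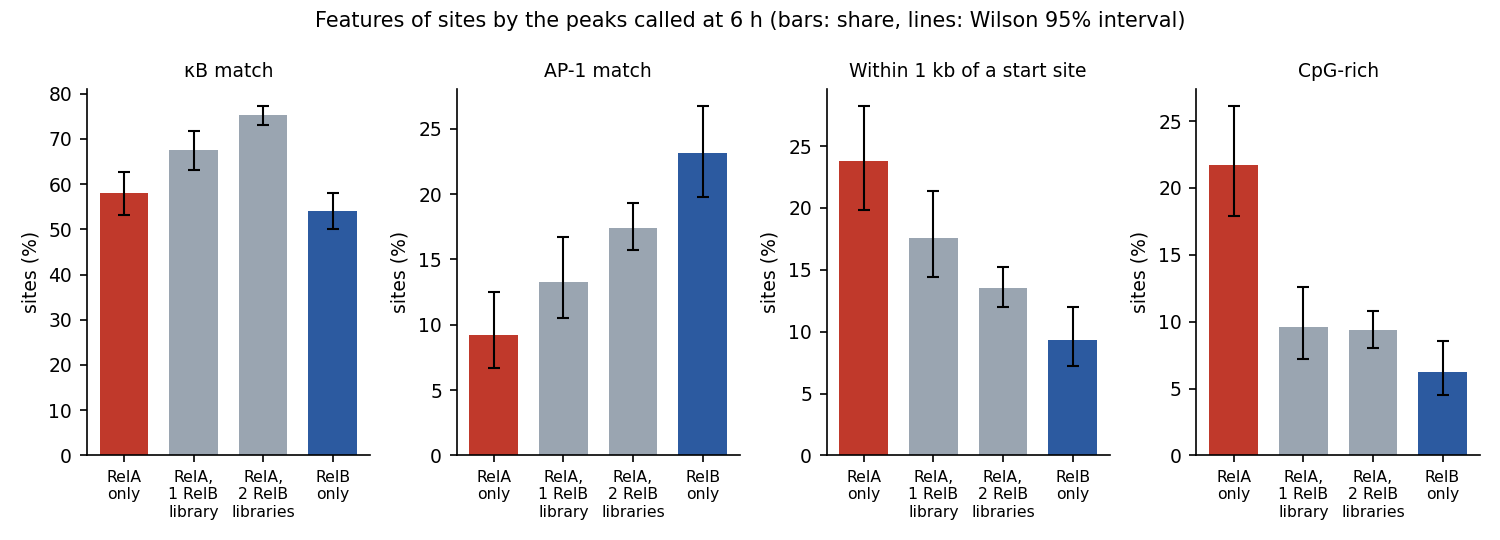
Bars give the percentage of sites with each feature and lines the Wilson 95% interval, for RelA-only sites (red, n = 391), RelA sites with a peak in 1 (n = 460) or 2 (n = 1688) RelB libraries (grey) and RelB-only sites (blue, n = 577). From left to right in the panels for start sites and CpG-rich DNA the red bar is the tallest, and in the AP-1 panel it is the lowest, at 9.21%.

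The matches at RelA-only sites lay toward the site centre. Their median distance from it was 35.5 bp and 35.2% lay within 25 bp, compared with 39.5 bp and 31.8% at other RelA sites. At RelB-only sites the matches were slightly nearer still, with 32.5 bp and 36.7%. A RelA-only site held 2 or more matches in 25.1% of cases, other RelA sites in 33.2% and RelB-only sites in 11.4%, where matches shifted by a base were counted separately.

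**Figure D5:**
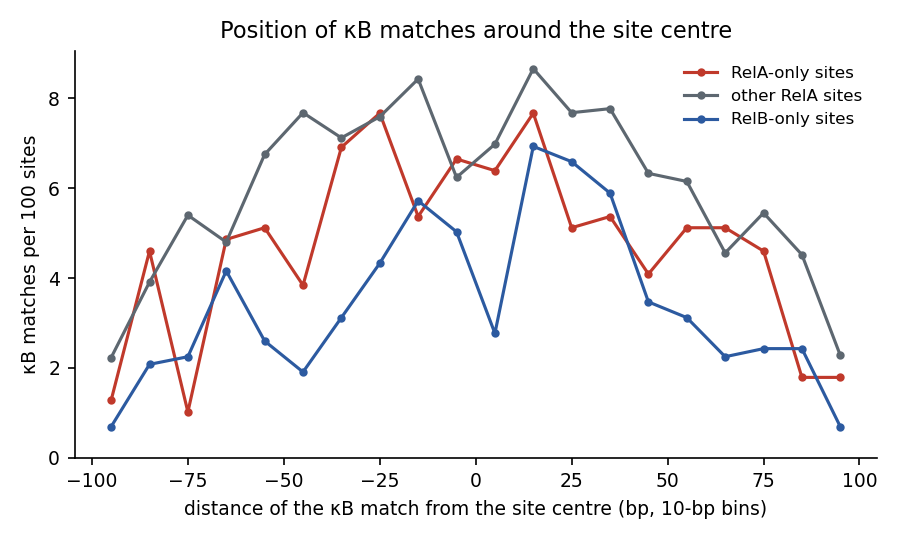
κB matches per 100 sites are plotted in bins of 10 bp by their distance from the site centre, for RelA-only (red), other RelA (grey) and RelB-only sites (blue). The red curve is highest, at 7.67, in the bins from -30 to -20 and from 10 to 20 bp and falls to 1.28 and 1.79 in the outermost bins.

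The base pair at the centre of the match differed between RelA-only and RelB-only sites. This pattern was noticed after the sequences had been counted and is given as a description. Of the κB matches at RelA-only sites, 58.0% (52.9 to 62.9%) had A or T at both central positions, and 58.8% (56.9 to 60.7%) did at other RelA sites. At RelB-only sites 39.7% (35.0 to 44.6%) did, and there 55.4% had a single G or C at the centre, against 36.0% at RelA-only sites. These intervals are too narrow, because several matches, also ones shifted by a base, can come from the same site. With only the match nearest to each centre counted, both central bases were A or T at 59.0% (52.5 to 65.2%) of RelA-only sites. At RelB-only sites this was 39.4% (34.2 to 44.9%).

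The commonest single κB sequence at RelA-only sites was GGAATTTCCC, or GGGAAATTCC on the opposite strand, which is contained in the match at the Cxcl5 start site printed above. It occurred at 19 of 227 RelA-only sites with a match (8.37%), at 6.14% of the other RelA sites with a match and at 6 of 312 RelB-only sites (1.92%). GGAAAGTCCC led at the other RelA sites, with 11.6%, and at RelB-only sites, with 12.5%, but was found at 8 RelA-only sites (3.52%). GGAAATTCCC, a form without G or C in its centre, came second at RelA-only sites with 14 sites (6.17%).

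A second family of factors, AP-1, is formed by Fos and Jun proteins and often binds near NF-κB in stimulated fibroblasts. Its sequence TGANTCA, searched on both strands, was found within 100 bp of the centre at 36 RelA-only sites, 9.21% (6.72 to 12.5%), and in 8.06% of their flanking windows. Other RelA sites had it in 16.5% (15 to 18.2%) and RelB-only sites in 23.1% (19.8 to 26.7%), with 6.28 and 7.28% of flanks. The difference was -7.32 points (widened interval -11.5 to -1.81) from other RelA sites and -13.8 points (-20.2 to -6.98) from RelB-only sites, both called. From RelB-only sites it was -4.58 points without RelB replicate 1, where the widened interval (-8.16 to -0.0351) only just left out 0. Without RelB replicate 2 it was -6.00 points, and both were still called. Of these 3 sets, the RelA-only sites had the AP-1 share closest to that of their flanks. Among the RelA-only sites away from gene starts the share was 11.1%, and 18.1% at the other RelA sites there.

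Other sequences were counted without a test. The SP1 box GGGCGG, typical of CpG-island promoters, was present at 16.9% of RelA-only sites and 6.39% of their flanks, at 9.59% of other RelA sites with 5.52% of flanks, and at 7.97% of RelB-only sites with 3.12% of flanks. The C/EBP sequence TTGCNNAA was found at 13% of RelA-only sites and 7.16% of flanks, and at 10.7% of other RelA sites and 8.57% of flanks. The TEAD sequence GGAATG, which can share letters with a κB match, occurred at 16.9% of RelA-only sites and 11.5% of flanks, and at 430 other RelA sites and 10.6% of their flanks. CCAAT, the NFY box, was at 26.3% of RelA-only sites and 22.3% of flanks, the E-box CANNTG at 61.4 and 65.7%, the ETS sequence CCGGAAG at 1.79 and 0.639%, and the CRE sequence TGACGTCA at 0.767% of sites and in 0 of 782 flanks, which allows a share of up to 0.384%. Both strands were searched for each, and a match describes letters in the window, not a bound site.

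Before TNF, RelA was called at almost none of these places. A peak of a RelA list at 0 h overlapped 3 of 391 RelA-only sites (0.767%, 0.261 to 2.23%), 0 of 2148 other RelA sites, which allows a share of up to 0.140%, and 4 of 577 RelB-only sites. The 3 sites lay in a UTR of Foxl2, in a non-coding exon upstream of Gata6 and in an intron of Hjurp, and none had a κB match. At Foxl2, a forkhead factor gene, the log2 fold was 3.43 and 3.81 at 0 h and 3.21 and 3.53 at 6 h. The Hjurp site was the weakest of all 391, with 1.44 and 1.48 at 6 h, and was called in a single library at 0 h with 1.52. The widened interval of the difference from the other RelA sites, 0.0591 to 3.39 points, only just left out 0 and rests on 3 sites. It held 0 without RelB replicate 1 (0.532 points) and without RelB replicate 2 (0.442 points), and left it out without RelA replicate 1 (0.469 points). A peak of a RelB list at 0 h overlapped 0 of 391 RelA-only sites, which allows a share of up to 0.767%.

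Neighbouring NF-κB sites were counted from the same peak lists that chose the sites. A RelB peak beside a RelA-only site can count as its neighbour, whereas at other RelA sites an overlapping RelB peak is part of the site, so the shares are a description and carry no test. Another reproducible site of RelA or RelB had its centre within 10 kb of 71 RelA-only sites (18.2%), 15.9% of the other RelA sites and 12.5% of RelB-only sites. With RelB peaks within 500 bp counted as overlap, the difference from the other RelA sites was -5.16 points. The median distance to the nearest protein-coding start site was 19433 bp, compared with 29488 bp at other RelA and 41305 bp at RelB-only sites.

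Following the study, a gene was assigned to a site when its start lay less than 50 kb away. RelA-only sites were assigned to 872 genes, 603 of them protein-coding, which is 2.34% of 37273 annotated genes. Any reproducible RelA site was assigned to 11.9% of genes and any reproducible RelB site to 12.7%. Of the 872 genes, 224 had a further RelA site and 253 a reproducible RelB site in that distance, and 572 had no other reproducible site of either antibody. Peaks called in a single library do not enter these counts, so the 572 genes are not free of RelB peaks. A RelB peak of either library lay within 50 kb of 57.3% of the RelA-only sites. The same count was not made for genes near the comparison sites. When 1 library was left out, the number of genes was 4843 without RelA replicate 1, 6606 without RelA replicate 2 and 1466 without RelB replicate 2.

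Among 262 annotated genes of 22 chosen gene lists, 25 had a RelA-only site (9.54%), 136 any RelA site (51.9%) and 124 a RelB site (47.3%). Over all 37273 annotated genes, 872 had a RelA-only site (2.34%), 4428 any RelA site (11.9%) and 4747 a RelB site (12.7%). Each share was thus higher in the lists, so the higher share was not particular to RelA-only sites. The lists hold NF-κB targets and regulators beside other genes, such as those of matrix, integrins and oxidative defence. The shares of list genes describe these lists, are not shares of known NF-κB targets and were not tested. By list, RelA-only sites were assigned to 3 of 12 CXC chemokines, 3 of 9 adhesion molecules and 3 of 13 MHC class I processing genes. Any reproducible RelA site was assigned to 9, 5 and 12 genes of these lists. RelA-only sites were also assigned to 2 of 8 genes listed as IκB proteins, 2 of 9 ubiquitin regulators and 2 of 12 TRAF, cIAP and RIP genes. There 7, 5 and 8 genes had any RelA site. Another 2 genes each had a RelA-only site among 14 IRF and STAT factors, 18 Toll-like receptors and adaptors and 15 complement genes. In these lists 10, 5 and 6 genes had any RelA site. A single gene had a RelA-only site among 9 colony-stimulating factors and IL-6 family members, 11 survival genes, 12 AP-1 factors and 22 matrix and integrin genes. Any RelA site was assigned to 4, 4, 7 and 10 of them. Of the 6 genes whose tracks the study displayed, which are no independent choice, 1 had a RelA-only site and 4 any RelA site. These 25 genes rested on 18 sites, because several lie side by side. A further reproducible RelA site was near 13 of them and a reproducible RelB site near 12, and 10 had neither. No RelA-only site was assigned to the 5 NF-κB subunits, 11 IKK and NIK kinases, 13 CC and CX3C chemokines or 11 matrix metalloproteinases. Any reproducible RelA site was assigned to 5, 2, 10 and 3 genes of these lists. The 13 oxidative defence genes, 9 prostaglandin and nitric oxide enzymes, 17 TNF ligands and receptors and 17 interleukins and receptors had no RelA-only site either. Of these, 7, 3, 7 and 7 genes had any RelA site. These lists are small, and whether a count of 0 differs from the 9.54% over all lists was not tested.

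Promoter sites among these genes ran from the 10 strongest RelA-only sites, at Ier3, to weak sites such as the one at Cxcl5. At Ier3, an immediate-early gene of the stress response, the site lay 128 bp upstream of the start and had log2 folds of 4.09 and 4.32 with 22 and 33 ChIP reads, the strongest RelA-only site of any list gene. It was 8071 bp from the nearest RelB peak. At Icam1, which encodes an adhesion molecule for leukocytes, the site was 117 bp upstream of the start, had 3.10 and 3.27 with 22 and 19 reads, and was 820 bp from a RelB peak, in CpG-rich DNA. Icam4 and Icam5 were assigned to it as well. At Tnip3, an inhibitor of NF-κB that binds A20 and ubiquitin, the site 82 bp upstream of the start had 3.58 and 2.39 with 30 and 13 reads, a difference of over 1 between the libraries, and the nearest RelB peak was 13101 bp away.

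Several antigen-presentation and interferon genes shared 1 site. A site 294 bp upstream of Psme2, which encodes a subunit of the PA28 proteasome activator, had log2 folds of 3.49 and 3.27 with 25 reads in both libraries. Psme1, the partner subunit, and Irf9, the DNA-binding subunit of the interferon-activated complex ISGF3, were within 50 kb of it at 13284 and 12164 bp. None of these genes had another reproducible site, but a peak of a RelB library lay 3 bp from this one. Nlrc5, a transactivator of MHC class I genes, had a RelA-only site 29337 bp upstream with 2.57 and 2.73.

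Of the chemokine and complement genes with a RelA-only site, Cxcl5 and C3 had it at the start, and Cxcl3, Cxcl15 and Serping1 lay farther away. The site at Cxcl5, a neutrophil chemokine, was 22 bp from the start, in a UTR, with log2 folds of 2.24 and 2.28 and 26 and 15 reads. It was 52556 bp from the nearest RelB peak, and Cxcl3 and Cxcl15 were assigned to it as well, at 26782 and 35213 bp. The site at C3, the central complement component, was 5 bp from the start, with 2.83 and 2.67 and 50 and 44 reads over 19 and 16 input reads. C3 also had other RelA and RelB sites within 50 kb, and the nearest RelB peak was 2587 bp away. Serping1, the C1 inhibitor, had a site 15123 bp upstream with 2.79 and 1.78.

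Among the regulators of NF-κB signalling, Nfkbie, Nfkbiz, Birc2, Birc3 and Cyld had a further RelA site and a RelB site within 50 kb. An intron of Nfkbie, which encodes the inhibitor IκBε, had 2.24 and 2.22 with 14 and 16 reads, 387 bp from a RelB peak. An intron of Nfkbiz, which encodes the nuclear protein IκBζ, had 2.56 and 3.17, 173 bp from a RelB peak, in CpG-rich DNA. A site 1847 bp upstream of Birc2, which encodes the ubiquitin ligase cIAP1, had 3.21 and 2.62 with 15 and 12 reads, and Birc3 was assigned to it as well. This site lay 38 bp from the start of the gene C330006D17Rik and was CpG-rich with no κB match. The Nod2 intron was assigned to Cyld, a deubiquitinase, at 46542 bp.

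Myd88, the adaptor of Toll-like and IL-1 receptors, had a site in an intron 335 bp from its start, which was also 218 bp upstream of Acaa1a, with log2 folds of 3.31 and 3.17 and 22 and 18 reads. The nearest RelB peak was 247714 bp away. Ticam1, the adaptor of TLR3, was assigned a site 26455 bp upstream with 2.56 and 2.83. That site lay 80 bp from the start of Uhrf1. At Stat3 a site 7520 bp upstream had 2.57 and 2.58 with 23 and 18 reads. Maff, a small Maf factor gene, had 2 RelA-only sites, 110 and 831 bp downstream of its start, and the stronger had 3.65 and 3.17 with 40 and 39 reads. Ctf1, the gene of cardiotrophin-1, had 2.89 and 2.01 at 454 bp and Col6a1, a collagen chain gene, 2.99 and 3.58 at 4029 bp.

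Beyond these lists, the 10 strongest sites within 1 kb of a protein-coding start were at Ier3, Apba3, Hivep2, BC003331, Cdk17, Eno4, Mical2, Rmi1, Fscn1 and Maff. Their log2 folds were between 3.58 and 4.31 in replicate 1 and between 3.06 and 4.32 in replicate 2. Of the 10, 6 were CpG-rich and 6 had a κB match. Hivep2, which encodes a zinc finger protein that binds κB-like sequences, had 3.70 and 3.91 with 22 and 28 reads, 1929 bp from a RelB peak. The Apba3 site had 4.31 and 3.53 with 48 and 25 reads and no κB match. Cdk17, a cyclin-dependent kinase gene, had 3.70 in both libraries, 164 bp from a RelB peak and without a κB match. Mical2, which encodes an actin-oxidizing enzyme, had 3.58 and 3.81, 172 bp from a RelB peak. Fscn1, which encodes the actin-bundling protein fascin, had 4.0 and 3.06. At Rmi1, a gene of DNA repair, the site had 3.65 and 3.70 and lay 21 bp from a RelB peak.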

How the data were processed

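ChIP-seq peak lists of Nfkb2-/- MEFs were used. The authors removed adapters with cutadapt, mapped reads to mm9 with Bowtie (unique hits retained), and ran cisGenome on each library against input for peak calling (200-bp windows, at least 4 reads, FDR below 0.1, fold above 2). The deposited FDR is a q-value of the call, the deposited log2 column holds the largest log2 fold over input in a peak, and the deposited counts are ChIP and input reads per peak, without normalization. Total reads per library are not in these lists, so depth is unknown, and a site without a peak has no value. At 6 h, reads in peaks were between 120352 and 162105 per library.

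Sites were built from overlaps of at least 1 bp. Members and gene lists were chosen with earlier results of these data known. Sequences were read from the mm9 genome, start sites from GENCODE. Motifs were searched within 100 bp of the site centre. Of 265 listed genes, 262 were annotated. Shares carry Wilson 95% intervals and differences Newcombe intervals, widened by Bonferroni to 99.58% for 6 features and 2 comparisons. Intervals cover counting error only, and 0 counts allow up to 3. No p-values were computed. The sites named were the 10 strongest, the 10 strongest within 1 kb of a protein-coding start, the nearest to each list gene, those with a 0 h peak, 3 on each side of the rule and the 3 strongest without a κB match. Alternatives covered thresholds, overlap, windows, distances, strength weighting and leaving out each library. Site building, motif search and intervals were tested on simulated data. Software was Python 3.11.15 with pysam 0.24.0, pandas 2.3.3, numpy 2.4.6, scipy 1.17.1 and matplotlib 3.10.9, and samtools 1.23.1.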

Additional observations from a re-analysis of the deposited data

How the results depend on the processing

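Of 130 recalculations, 98 kept the direction and the call, or a count within 1.5 times. The number of RelA-only sites was 153 (8.59% of RelA sites) with RelA peaks under an FDR of 0.01 and 234 (13.1%) with that threshold in all 4 lists. It was between 564 and 3932 (22.2 to 55.8%) when 1 library was left out. The widest values come from leaving out a RelA library, since every peak of the other then counts as a site. Genes assigned numbered 269 at 10 kb, 1652 at 100 kb, and between 1274 and 6606 with 1 library left out.

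The differences in AP-1 and CpG-rich shares were called in the same direction under every alternative run, against both comparison sets, and the κB difference from other RelA sites likewise. Some of these widened intervals only just left out 0. The CpG-rich difference from other RelA sites was 2.35 points (0.0435 to 4.67) without RelA replicate 1. The AP-1 difference was -4.58 points (-8.16 to -0.0351) from RelB-only sites without RelB replicate 1. From other RelA sites it was -4.47 points (-7.41 to -0.0829) with 50 bp on each side. With 1 library left out, the κB difference from RelB-only sites was between -25.5 and 22.7 points. In that comparison, sites of a single library were set against sites called in both. The start-site difference from other RelA sites was between 2.01 and 8.82 points with 1 library left out. The difference in 0 h RelA peaks from other RelA sites was 0.427 points and not called with an FDR under 0.01 in all 4 lists, 0.767 points and not called against sites with both RelB libraries and after weighting for strength, 0.512 points and not called when both 0 h lists were required, and between 0.442 and 0.814 points with 1 library left out. Neighbour shares depend on the rule that chose the sites and are given as values only. Their difference from other RelA sites was -0.291 points with an FDR under 0.01 in all 4 lists, -5.16 points when RelB peaks within 500 bp counted as overlap, 5.04 points at 2 kb, -0.673 points at 50 kb, and between -1.85 and 7.49 points with 1 library left out. From RelB-only sites it was 5.81 points at 2 kb, and between -1.99 and 10.3 points with 1 library left out. The cause of these changes was not tested.

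No paired analysis was possible because RelA-only sites have no value in the RelB libraries and no result was tested over libraries. A RelB signal below the calling threshold cannot be told from no signal in these lists.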

Other observations

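RelA-only sites were found on every autosome and on chromosome X. Their share of the RelA sites on a chromosome was lowest on chromosome 3, with 12 of 136 sites (8.82%), and among the autosomes highest on chromosome 14, with 16 of 72 (22.2%). On chromosome X, where few RelA sites were called, 4 of 9 (44.4%) were RelA-only. With autosomes alone there were 387 sites.

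RelA-only sites within 200 bp of a RelB peak had a κB match in 63.8% and were CpG-rich in 10.6% of 47 cases. Sites farther than 1000 bp from any RelB peak had a κB match in 58.6% and were CpG-rich in 22.7% of 309 cases. These sets were compared after the values were seen and were not tested.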
